A study of Mus musculus with 8 samples.

Results

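The heat shock and cold-inducible genes of mouse liver were taken as 10 genes named by symbol: the heat shock genes Hspa1a, Hspa1b, Hspa8, Hsph1, Hsp90aa1, Hsp90ab1, Dnajb1 and Hspb1, and the cold-inducible genes Cirbp and Rbm3. Of these, 8 had a probe set annotated to that symbol alone, among 22180 genes with such a probe set, and all 8 passed the filter on dim genes. Hsp90ab1 and Rbm3 had no probe set of their own by this rule and are not analysed here, so Cirbp alone stands for the cold-inducible side. A gene with several probe sets was represented by its brightest, on average, over the 8 arrays.

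Livers of wild-type C57BL/6 mice were compared in 2 groups of 4 samples, each measured on its own Affymetrix array: animals labelled as having non-alcoholic fatty liver disease and given rilpivirine, and animals labelled with the same disease and not given it. Rilpivirine is an antiretroviral drug that blocks HIV reverse transcriptase without being a nucleoside analogue, given daily by mouth at a dose described as equivalent to that of patients. The protocol names a normal diet and a diet of 60% fat over 3 months without tying either to a sample, and gives no age, no sampling hour and no housing temperature. Nothing in the labels says that each sample is a separate mouse, so every p-value measures the spread between samples called replicates, which may be technical.

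Heat shock proteins are chaperones: they hold unfolded proteins, help them fold, and deliver damaged ones for breakdown. In the cytosol, DNAJ proteins hand clients to HSP70, HSP110 exchanges the nucleotide of HSP70, and HSP90 finishes the folding of kinases and steroid receptors. Their transcription is driven by heat shock factors, chiefly HSF1, when misfolded protein accumulates. Mild cooling instead raises the RNA-binding proteins CIRBP and RBM3. In rodent liver both sets also cycle with body temperature over the day, heat shock transcripts peaking when the body is warm and Cirbp when it is cool. The comparison asks whether these transcripts differed with rilpivirine.

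The arrays had medians of 3.33 to 3.45 on the log2 scale. Rilpivirine replicate 2 stood apart, with a mean correlation of 0.965 with the other arrays, against 0.976 to 0.981 for the rest; it also had the highest mean over 75 small nucleolar RNA probe sets, 0.49 log2 above the mean of the arrays, and control replicate 1 had the lowest, at -0.60. The liver label was borne out by Alb, which encodes albumin, at 13.22 to 13.37 log2 on every array, and by the other hepatocyte markers, all 10 of 10 above the filter value of 2.72. Markers of other cells did not pass the test in either direction. Over all genes tested, 56.9% were lower with rilpivirine. Of the Kupffer cell markers 1 of 10 was higher and 9 were lower, with summed levels of 10.56 to 10.89 log2 with rilpivirine and 10.81 to 11.08 in controls. Of the sinusoidal endothelial markers 8 of 9 were higher and 1 was lower, with summed levels of 11.16 to 11.56 log2 with rilpivirine and 10.97 to 11.33 in controls. Skeletal muscle markers, which were dim, were higher in 5 and lower in 0, with summed levels of 6.28 to 6.92 log2 with rilpivirine and 6.34 to 6.57 in controls. Adipocyte markers, also dim, were higher in 2 and lower in 1. Their summed levels spread more widely with rilpivirine, 4.90 to 6.24 log2, than in controls, 5.09 to 5.16. The part of these cell types in the results was not tested, and in whole liver fewer cells of a type and less RNA per cell cannot be told apart.

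Neither Cirbp nor any of the 7 measured heat shock genes passed the test between the groups. Of the 8 members, 0 reached an adjusted p of 0.05 in limma, where 0% of all 16635 genes tested did so, and 0 reached an unadjusted p under 0.05, where 5.21% of all genes did. The rilpivirine and control values overlapped in 8 of 8 members, and 3.04% of all genes had groups that did not overlap. Among the 7 heat shock members 3 were higher and 4 were lower with rilpivirine. The counts were 1 and 6 once the arrays had been centred on a common median, and 4 and 3 after a further quantile normalization. In those settings the median over all genes was -0.04 and -0.005 log2. The median log2 difference of the heat shock members was -0.02, against -0.03 over all genes tested. It ran from -0.11 without rilpivirine replicate 1 to 0.085 with small nucleolar RNA as a covariate (0.058 without control replicate 1). Cirbp had the largest difference in size of the 8, at 0.31 log2, and it was higher with rilpivirine under all 18 alternative settings (0.17 to 0.38). With 4 arrays per group, the exact permutation test could not give a p below 0.0286, and their number limits the precision.

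**Figure D1:**
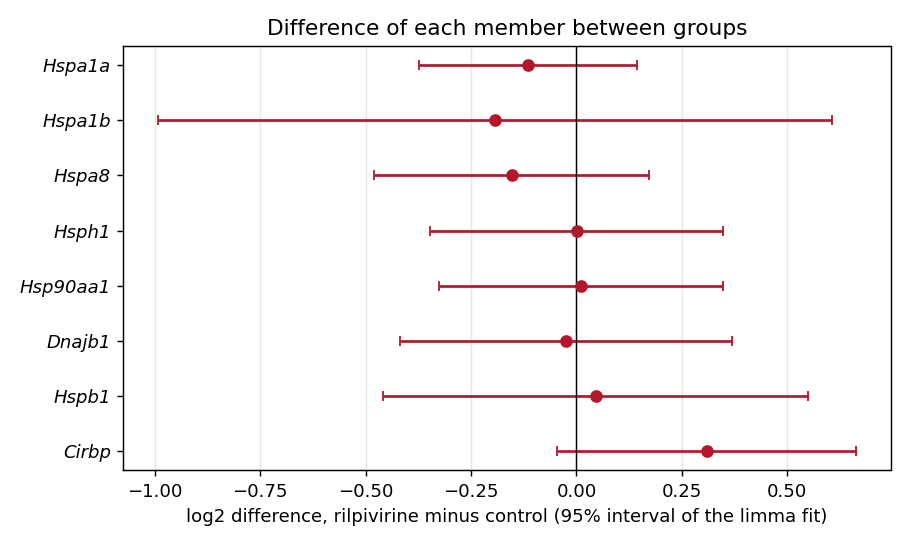
Log2 difference of each of the 8 measured members, rilpivirine minus control, with the 95% confidence interval of the limma fit over all genes (x axis; 4 arrays per group); each row is a gene. Every interval crosses 0; that of Hspa1b is the widest, from -0.99 to 0.61, and that of Cirbp, from -0.04 to 0.66, lies mostly above 0.

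Hspa1b and Hspa1a encode the stress-inducible HSP70 and are near-identical neighbours. Hspa1b measured 4.98, 5.04, 5.25 and 5.35 log2 in the rilpivirine livers, against 6.69, 4.58, 5.14 and 4.97 in control livers. Control replicate 1 was the highest of all arrays and control replicate 2 the lowest, so the rilpivirine values lay inside the control range. The log2 difference was -0.19 ± 0.36 (SE), with a limma adjusted p of 0.940 and an exact permutation p of 0.914 (two-sided, n = 4 each). Without control replicate 1 it was 0.25 (limma adjusted p = 0.998), so the sign of the difference rests on that array. In control replicate 1, Hspa1b stood 1.44 log2 above its mean over the 8 arrays, and 4 of the 16635 genes tested stood farther above theirs on that array. The SD of Hspa1b over the arrays was 0.62, exceeded by 1.38% of genes, and without control replicate 1 it was 0.25, exceeded by 36.6%. Small nucleolar RNA was lowest on the same array, as given above, and with its level as a covariate the difference of Hspa1b was 0.27 log2. That level had its extremes on control replicate 1 and rilpivirine replicate 2. The covariate is therefore not independent of leaving out either array.

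Hspa1a had a dim probe set, close to the filter value. It measured 2.91, 3.00, 2.89 and 2.93 log2 in rilpivirine livers, against 3.17, 3.20, 3.00 and 2.83 in control livers. The controls spread around the rilpivirine values, and the log2 difference was -0.11 ± 0.12 (SE; limma adjusted p = 0.911). On control replicate 1, where Hspa1b stood far above its other values, Hspa1a stood 0.18 log2 above its own mean. Because these genes are near-identical copies, the split of signal between their probe sets is uncertain. Each was also named on 1 probe set annotated to several symbols, which was not used here.

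The promoters show how alike the copies are and where a heat shock element lies. RefSeq start sites on GRCm38.p6 gave windows of the 250 bases before the start for Hspa1a, Hspa1b, Hsph1, Dnajb1, Hspb1 and Cirbp. The windows of Hspa1a and Hspa1b were 98.8% identical and differed at 3 positions, C44T, T47C and T249G, counted from 1 at the 5′ end of the window with the Hspa1a base given before the position. Heat shock factors bind inverted repeats of a short unit, searched here as GAANNTTC and TTCNNGAA; each reads the same on both strands, and no matches overlapped in these windows. Over all 32851 RefSeq promoter windows, 12.8% held at least 1 of these patterns. Among the members, 1 match lay 104 bases before the start in both Hspa1a and Hspa1b, 1 in Hsph1, 2 in Hspb1, and 0 in the windows of Dnajb1 and Cirbp. The E-box CACGTG, the element of the clock's activators, was found in 1 of the overlapping Hsph1 windows and in 6.02% of all windows. The 4 windows below are shown 5′ to 3′, with the heat shock element patterns in capitals, for the inducible HSP70, HSP110 and the small heat shock protein, which hold a match, and for Cirbp, which holds none.
Hspa1b, chr17:34959239-34959488, minus strand: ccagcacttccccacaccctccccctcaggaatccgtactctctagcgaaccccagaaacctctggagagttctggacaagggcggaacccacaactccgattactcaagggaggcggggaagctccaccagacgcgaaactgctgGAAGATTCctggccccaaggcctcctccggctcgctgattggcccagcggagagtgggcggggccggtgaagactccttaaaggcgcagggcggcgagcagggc
Hsph1, chr5:149636337-149636586, minus strand: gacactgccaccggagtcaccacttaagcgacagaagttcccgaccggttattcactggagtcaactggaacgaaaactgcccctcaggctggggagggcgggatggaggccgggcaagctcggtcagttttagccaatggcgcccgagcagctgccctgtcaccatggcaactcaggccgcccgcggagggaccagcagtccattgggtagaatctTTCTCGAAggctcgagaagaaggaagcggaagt
Hspb1, chr5:135887669-135887918, plus strand: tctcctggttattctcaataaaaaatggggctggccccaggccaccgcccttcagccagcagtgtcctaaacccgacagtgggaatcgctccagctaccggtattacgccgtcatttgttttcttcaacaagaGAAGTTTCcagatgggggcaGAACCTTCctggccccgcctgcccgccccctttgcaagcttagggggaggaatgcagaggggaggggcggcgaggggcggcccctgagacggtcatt
Cirbp, chr10:80167589-80167838, plus strand: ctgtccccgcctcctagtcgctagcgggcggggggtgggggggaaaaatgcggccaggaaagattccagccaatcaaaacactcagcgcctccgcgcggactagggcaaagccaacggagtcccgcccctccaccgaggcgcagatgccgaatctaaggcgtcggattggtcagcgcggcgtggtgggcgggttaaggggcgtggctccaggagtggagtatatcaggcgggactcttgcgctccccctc
A match is a pattern of letters and not a measured site, and the members with a match (Hspa1a, Hspa1b, Hsph1, Hspb1) had log2 differences of -0.19 to 0.05, while those with none, Dnajb1 and Cirbp, had differences of -0.02 and 0.31.

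Hspa8 encodes HSC70, the constitutive HSP70 that also uncoats clathrin vesicles and carries proteins to the lysosome. It measured 10.91, 10.49, 10.77 and 11.00 log2 in rilpivirine livers, against 11.23, 10.76, 10.91 and 10.88 in control livers. Control replicate 1 was again the highest array and rilpivirine replicate 2 the lowest, and the groups overlapped. The log2 difference was -0.15 ± 0.15 (SE; limma adjusted p = 0.904), a ratio of 0.717 to 1.13 at 95% confidence. It was -0.052 without rilpivirine replicate 2 and -0.059 without control replicate 1. Hspa8 was named on 1 probe set annotated to several symbols, which was not used. It had 3 other probe sets of its own, all dimmer. Differences of -0.17 and -0.13 log2 were found in a pair that followed the bright probe set over the arrays (r = 0.86 and 0.84), while the dimmest had a difference of 0.26 and followed it less closely (r = 0.40). The probe sets of Hspa8 therefore did not share a direction.

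Hsph1, the HSP110 that recharges HSP70, and Dnajb1, the HSP40 that delivers clients to it, are co-chaperones of the same cycle. Hsph1 measured 7.37, 6.89, 7.41 and 7.30 log2 in rilpivirine livers, against 7.48, 7.37, 7.16 and 6.95 in control livers. The group means coincided at 7.24 log2, and the difference of 0.00092 had a 95% interval of -0.35 to 0.35, a ratio of 0.786 to 1.27 (limma adjusted p = 0.999). Dnajb1 measured 5.85, 5.004, 5.49 and 5.62 log2 in rilpivirine livers, against 5.77, 5.49, 5.46 and 5.33 in control livers. Its lowest value was in rilpivirine replicate 2 and its highest in rilpivirine replicate 1, so the rilpivirine group enclosed the control group. The log2 difference of Dnajb1 was -0.02 ± 0.18 (SE; limma adjusted p = 0.986), and 0.14 without rilpivirine replicate 2.

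Hsp90aa1 encodes the inducible HSP90 of the cytosol, whose clients include the glucocorticoid receptor and many kinases. It measured 6.27, 6.29, 6.61 and 6.78 log2 in rilpivirine livers, against 6.62, 6.24, 6.38 and 6.67 in control livers. Each group held a pair of higher and a pair of lower arrays, and rilpivirine livers averaged 6.49 ± 0.25 log2 against 6.48 ± 0.20 log2 in control livers (SD, 4 arrays each). The 95% interval of the difference ran from -0.33 to 0.35 log2, a ratio of 0.797 to 1.27.

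Hspb1 encodes the small heat shock protein HSP25 of the mouse, which holds unfolding proteins without using ATP and steadies actin filaments. It measured 5.33, 5.68, 4.40 and 5.37 log2 in rilpivirine livers, against 5.09, 5.20, 5.07 and 5.23 in control livers. The controls lay within 0.16 log2 of each other, whereas rilpivirine replicate 3 was below every other array and the other rilpivirine arrays were above every control. The SD was 0.55 with rilpivirine and 0.080 in controls. The log2 difference was 0.05 ± 0.23 (SE; limma adjusted p = 0.978). Without rilpivirine replicate 3 it was 0.31, with a limma p of 0.0401 before adjustment and 0.670 after it. On that array Hspb1 stood 0.77 log2 below its mean, a shortfall exceeded by 0.162% of genes tested. Another probe set of Hspb1 was dim, at 2.94 to 3.06 log2 with rilpivirine (3.03 on rilpivirine replicate 3) and 2.76 to 3.38 in controls. It did not follow the brighter probe set over the arrays (r = -0.024). Being close to the filter value of 2.72, it cannot show whether Hspb1 dropped on that array.

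**Figure D2:**
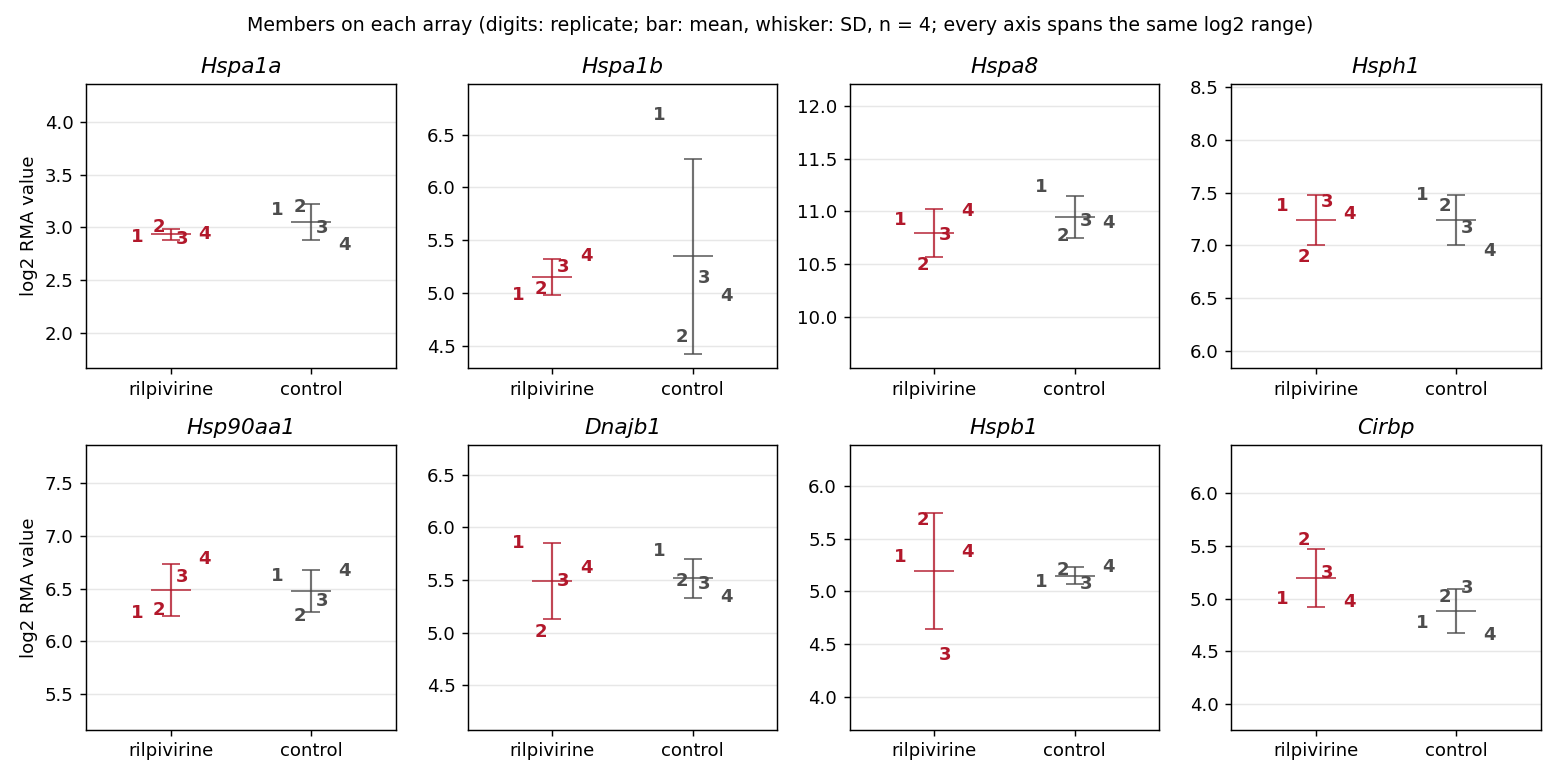
Deposited log2 RMA values (y axis) of the 8 measured members in rilpivirine livers (left, red) and control livers (right, grey); digits give the replicate, horizontal bars the mean and whiskers the SD (n = 4 each), and every panel spans the same number of log2 units. Control replicate 1 stands above the rest in Hspa1b (6.69) and rilpivirine replicate 3 below the rest in Hspb1 (4.40); in all panels the groups overlap.

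Cirbp encodes the cold-inducible RNA-binding protein, which binds transcripts of clock genes, among others, and is known to support the amplitude of Clock expression in mouse cells. It measured 4.9999, 5.56, 5.25 and 4.97 log2 in rilpivirine livers, against 4.77, 5.02, 5.10 and 4.65 in control livers. Rilpivirine replicates 2 and 3 were above every control, while rilpivirine replicates 1 and 4 lay within the control range. Rilpivirine livers averaged 5.19 ± 0.27 log2 and control livers 4.89 ± 0.21 log2 (SD, 4 arrays each). The log2 difference was 0.31 ± 0.16 (SE), with a limma p of 0.0809 before adjustment, 0.890 after it, and an exact permutation p of 0.171 (two-sided, n = 4 each). Its 95% interval was -0.04 to 0.66, a ratio of 0.969 to 1.58. The value leaned on rilpivirine replicate 2, the array that stood apart: without it the difference was 0.19 (limma adjusted p = 0.999), and with small nucleolar RNA as a covariate it was 0.17. It was 0.38 without rilpivirine replicate 4, with a limma p of 0.0458 before adjustment and 0.545 after it. With the replicate number as a block the limma p was 0.0394 before adjustment and 0.770 after it.

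Set against Cirbp on the same array, each of the 7 heat shock genes had a lower mean with rilpivirine over all 8 arrays, but in none were the groups apart. The difference of the log2 ratio to Cirbp ran from -0.50 for Hspa1b to -0.26 for Hspb1. It moved with single arrays: without control replicate 1 it was -0.016 for Hspa1b, without rilpivirine replicate 3 it turned to 0.019 for Hspb1, and without rilpivirine replicate 2 it was -0.050 for Dnajb1 and -0.069 for Hsph1. All 7 ratios share the Cirbp value, which was itself higher, so their common direction counts once. The ratio of Hspa8 to Cirbp was 5.91, 4.93, 5.52 and 6.03 log2 in rilpivirine livers, against 6.46, 5.75, 5.81 and 6.23 in control livers. Rilpivirine replicates 2 and 3 were below every control, and replicates 1 and 4 were inside the control range. Over all 8 arrays the groups did not overlap in 0 of the 7 ratios (3.04% of single genes). Without control replicate 3 they did not overlap in 1, that of the dim Hspa1a. Fewer controls make such a gap easier to reach, and no share of genes was counted in that setting.

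Among themselves the members covaried unevenly over the 8 arrays. Of 28 pairs of members, 0 passed a Benjamini-Hochberg adjusted p of 0.05 by Pearson's r (smallest adjusted p = 0.171) or by Spearman's rho (smallest 0.617), both from exact permutation; 3 and 0 pairs had an unadjusted p under 0.05. The co-chaperones Hsph1 and Dnajb1 had the highest correlation, with r = 0.84 (exact permutation p = 0.00610, adjusted p = 0.171) and rho = 0.71 (exact p = 0.0576, adjusted p = 0.617). With the group means taken out r was also 0.84, and it was 0.47 without the 2 arrays farthest from the median of Hsph1. Hspa8 and Dnajb1 followed with r = 0.80 (exact p = 0.0259, adjusted p = 0.273) and rho = 0.71 (exact p = 0.0576, adjusted p = 0.617), and r was 0.34 without the 2 arrays farthest from the median of Hspa8. Hspa8 and Cirbp were opposed, with r = -0.79 (exact p = 0.0292, adjusted p = 0.273) and rho = -0.67 (exact p = 0.0831, adjusted p = 0.617). That r was -0.75 with the group means taken out and -0.34 without the 2 arrays farthest from the median of Hspa8. Without rilpivirine replicate 2 alone, r was 0.69 for Hsph1 and Dnajb1, 0.56 for Hspa8 and Dnajb1, and -0.53 for Hspa8 and Cirbp. All 3 relations were thus weaker without that array. Leaving out the arrays farthest from a gene's median narrows its range and so tends to weaken r. That setting therefore cannot tell how far the relations rest on extreme arrays, and all arrays share the RMA normalization.

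Over all 8 arrays Cirbp correlated negatively with 5 of the 7 heat shock genes (median r = -0.31). The heat shock genes correlated positively with each other in 15 of 21 pairs (median r = 0.18). Without rilpivirine replicate 2, r with Cirbp was 0.43 for Hsph1 (from -0.27), 0.0042 for Dnajb1 (from -0.57) and -0.57 for Hspb1 (from 0.10). For the others it was -0.53 (Hspa8), -0.32 (Hspa1b), -0.32 (Hsp90aa1) and -0.031 (Hspa1a). Over the 8 arrays Hspb1 had r between -0.54 (with Hsph1) and 0.12 (with Hspa1a) with the other heat shock genes. Hspa1a and Hsp90aa1 also had a negative r, at -0.36. Without rilpivirine replicate 2, r of Hspb1 was 0.33 with Hspa8 (from -0.22) and 0.27 with Dnajb1 (from -0.28). It was then -0.28 with Hsph1, -0.13 with Hsp90aa1, -0.11 with Hspa1b and 0.12 with Hspa1a. Hspa1b and Hspa8 had r = 0.71 (exact p = 0.0697, adjusted p = 0.488) and rho = 0.62 (exact p = 0.115, adjusted p = 0.617), but r = 0.29 without control replicate 1 and 0.31 without the 2 arrays farthest from the median of Hspa1b. By array, 6 of the 7 heat shock genes were above their own mean in control replicate 1 and in rilpivirine replicate 4. In rilpivirine replicate 2, where Cirbp was 0.52 log2 above its mean, 2 of the 7 were above theirs, as in rilpivirine replicate 3 and control replicate 3. Arrays high and low in heat shock transcripts were thus found in both groups.

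**Figure D3:**
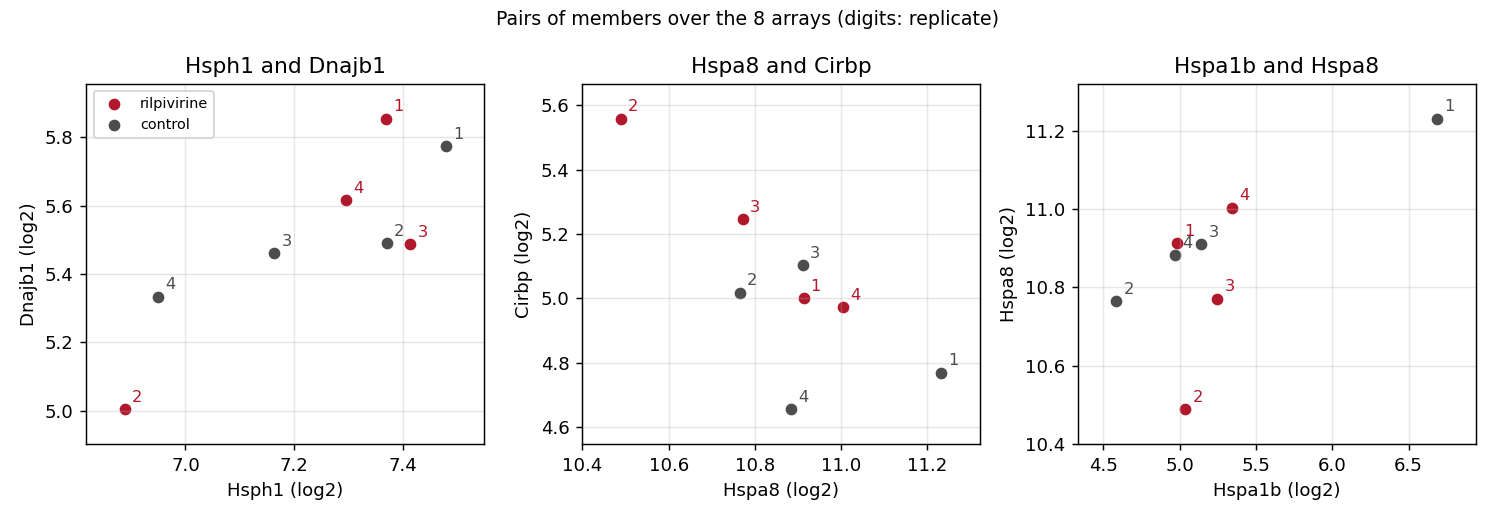
Log2 values of 3 pairs of members over the 8 arrays (rilpivirine red, control grey; digits give the replicate). Hsph1 and Dnajb1 rise together (r = 0.84), Hspa8 and Cirbp run opposite (r = -0.79), and in the panel of Hspa1b and Hspa8 (r = 0.71) control replicate 1 lies alone at the upper right.

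The genes most like Hspa1b and Cirbp over the 8 arrays were searched among all 16635 genes, and the correlations describe those arrays alone. Hspa1b, the heat shock member with the largest SD, was followed most closely by Zfp189, a zinc finger gene (r = 0.98), then by Fancm, a DNA translocase of the Fanconi anaemia pathway (0.95), Cplane1 (0.91), Fgfbp3 (0.90) and Tgm6 (0.90). Without control replicate 1 the correlation of Zfp189 was 0.95, that of Fancm 0.75, and that of Fgfbp3 0.39. Zfp189 ran over a narrow span, from 5.05 to 5.40 log2, and Tgm6 was dim, at 3.32 to 3.81. For Cirbp the closest were Lin28a (0.97), Tenm4 (0.95), Alb (0.95), Bmp15 (0.95) and Glcci1, a glucocorticoid-induced transcript (0.94). Bmp15 was dim, at 2.74 to 3.47 log2, close to the filter value of 2.72. Tenm4 (3.22 to 3.69) and Lin28a (3.69 to 4.58) were dim as well, so their likeness to Cirbp may reflect background signal, which was not tested. Albumin, one of the brightest transcripts of liver, spanned 13.22 to 13.37 log2, and its correlation with Cirbp was 0.94 without rilpivirine replicate 2.

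Genes of the wider chaperone network did not pass the test either. Of 36 other cytosolic chaperones and heat shock factor targets tested, 15 were higher and 21 lower, where 56.9% of all genes tested were lower. In limma 0 passed the adjusted threshold. At an unadjusted p under 0.05, 0 were higher and 1 was lower, where 2% and 3.21% of all genes were. The median of these 36 genes was -0.07 log2, but 0.041 without rilpivirine replicate 2 and 0.093 without rilpivirine replicates 1 and 2 together. It was 0.079 with small nucleolar RNA as a covariate and 0.0023 after a further quantile normalization. The gene below that unadjusted threshold was Dnajb6, an HSP40 that suppresses aggregation, with 4.14, 3.77, 4.69 and 4.63 log2 in rilpivirine livers, against 5.03, 4.45, 4.80 and 4.94 in control livers. Its difference was -0.50 ± 0.21 (SE; limma adjusted p = 0.890), and the groups overlapped at control replicate 2. Bag1, a nucleotide exchange factor of HSP70, had a difference of -0.36 ± 0.18 (SE), and Bag3, a heat-inducible factor of selective autophagy, one of 0.38 ± 0.20 (SE), neither past the threshold.

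Among heat shock factors and chaperones of the organelles 0 genes passed in limma, and 0 reached an unadjusted p under 0.05. Of 5 tested factors and regulators 1 was higher and 4 lower (median -0.12 log2, and -0.021 without control replicate 1), with Hsbp1, a small protein that binds HSF1, at -0.32 ± 0.17 (SE), Hsf4 at -0.12 ± 0.12 and the dim Hsf5 at 0.10 ± 0.10. Of 10 mitochondrial chaperones 1 was higher and 9 lower, where 56.9% of all genes tested were lower. The median of these chaperones was -0.05, and 0.01 after a further quantile normalization. Dnaja3, the mitochondrial HSP40, differed by -0.28 ± 0.14 (SE), the nucleotide exchange factor Grpel1 by -0.25 ± 0.15, and Hspe1, the lid of the HSP60 chamber, by -0.20 ± 0.20. Of 12 chaperones of the endoplasmic reticulum 3 were higher and 9 lower (median -0.11, but 0.0054 without rilpivirine replicate 2, 0.0080 without rilpivirine replicates 1 and 2 together, and 0.0083 with small nucleolar RNA as a covariate). Hspa5, the HSP70 of that compartment known as BiP, measured 7.71, 7.43, 7.74 and 8.11 log2 in rilpivirine livers, against 7.67, 7.28, 7.46 and 7.29 in control livers. Its difference was 0.32 ± 0.16 (SE; limma adjusted p = 0.890), while Manf and Dnajc3 differed by 0.27 ± 0.18 and -0.34 ± 0.20 (SE).

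Genes tied to temperature by splicing or RNA binding were tested beside Cirbp. Of 19 such genes 3 were higher and 16 lower, where 56.9% of all genes tested were lower. Of the 19, 0 reached an unadjusted p under 0.05, and their median was -0.09 log2. That median was 0.014 without rilpivirine replicate 2, 0.18 without rilpivirine replicates 1 and 2 together, and 0.10 with small nucleolar RNA as a covariate. Clk4, a kinase of splicing factors, differed by -0.38 ± 0.26 (SE), Hnrnpdl, an RNA-binding protein, by -0.36 ± 0.27, and the splicing factor Srsf1 by -0.26 ± 0.20. Noct, the rhythmic phosphatase nocturnin, known to keep cycling in mouse liver when the hepatocyte clock is stopped, differed by -0.36 ± 0.21 (SE). Immediate early genes, which respond to handling and to acute stress, were also below the threshold: of 20 tested 8 were higher and 12 lower, the median being -0.03 (0.03 after a further quantile normalization) and 0 at an unadjusted p under 0.05. The median of these 20 genes came to 0.084 with small nucleolar RNA as a covariate, 0.082 once rilpivirine replicate 2 was left out, and 0.090 with rilpivirine replicates 1 and 2 both left out. Egr2, a zinc finger transcription factor, differed by 0.28 ± 0.13 (SE), Fosb, a partner of JUN in AP-1, by -0.22 ± 0.13, and Gadd45b, a stress-induced growth arrest gene, by -0.19 ± 0.12, none past the threshold.

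The circadian clock list had 3 genes higher and 11 lower at an unadjusted p under 0.05 among 19 tested (over all genes, 2% were higher and 3.21% lower at that threshold), and 0 past the adjusted threshold in limma, beside 0 of 7 heat shock genes and 0 of 1 cold-inducible gene at the unadjusted threshold. Its median log2 difference was -0.44, against -0.03 over all genes. Usp2, a rhythmic deubiquitinase, had a difference of -1.60 ± 0.35 (SE), Wee1, a mitotic kinase under clock control, -1.12 ± 0.27, and Arntl, the gene of BMAL1, 0.69 ± 0.19, with limma adjusted p-values of 0.743, 0.773 and 0.777. Whether the clock genes and the temperature-responsive genes differed from each other in their response was not tested, and the labels give no sampling hour.

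**Figure D4:**
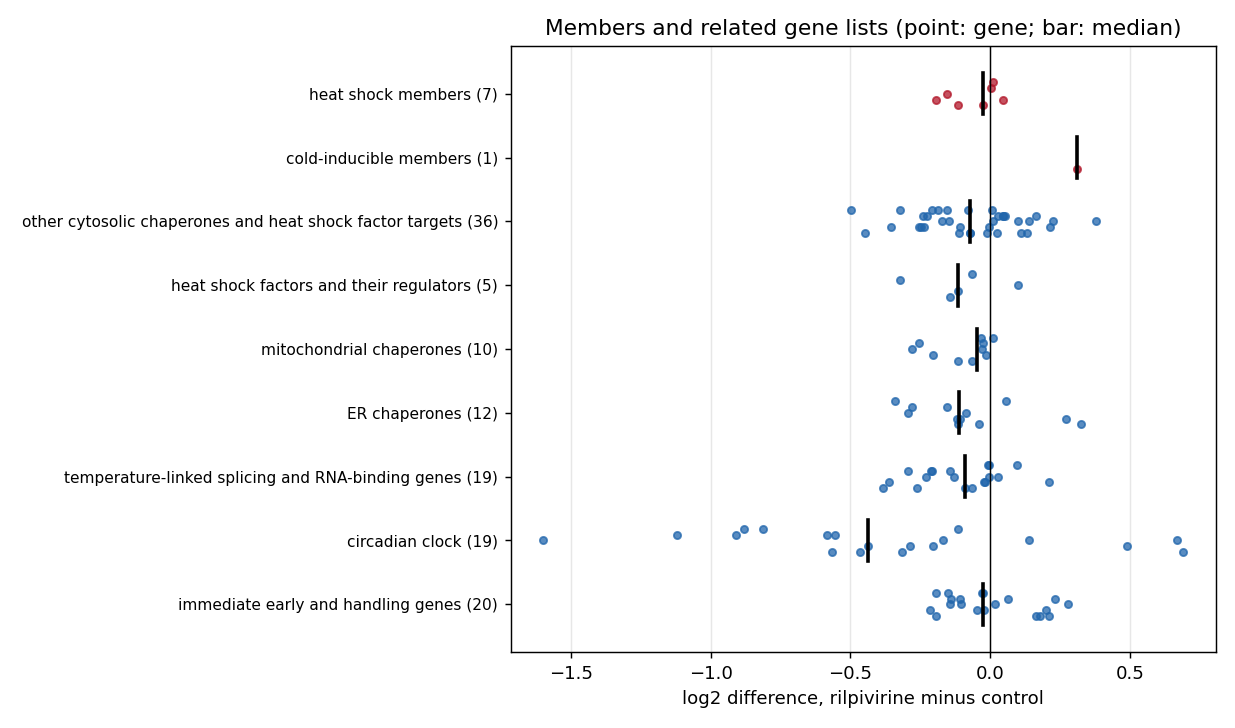
Log2 difference, rilpivirine minus control (x axis), of each tested gene of the members (red) and of related lists (blue; number of genes in brackets), with black bars at the list medians. The heat shock members lie between -0.19 and 0.05, whereas the clock genes run from -1.60 to 0.69.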

How the data were processed

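Liver RNA (300 ng per sample) was measured on 8 one-colour arrays, and the authors deposited log2 values for 41345 probe sets made with RMA, per the submitters' processing notes, which also name limma; the authors' software versions and annotation are not stated in the labels. RMA corrects background, equalizes the arrays' distributions and sums probes into probe sets, so a change in total mRNA could not be seen. Probe sets were named by the platform annotation: 23521 had 1 gene symbol, 1814 several and 16010 none. Those with 1 symbol gave 22180 genes; 16635 of them, those averaging at least 2.72 log2 (the 25th percentile), were tested.

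Groups were compared, two-sided, in R 4.3.3 with limma 3.58.1 (lmFit, then eBayes), with Benjamini-Hochberg adjustment over all genes, a threshold of 0.05 and 95% intervals, and with exact permutation over the 70 splits of the arrays. The limma code was tested on simulated data. The members and lists were chosen with earlier results of these data known. From each list the 3 genes with the smallest p were named, and Dixon's criterion for a sample far from its group was met by none of the members; similar genes were the 5 with the highest r, passing over predicted genes and small RNAs. Hsf1 and Per2, also on the list of genes to name, had no probe set of their own and are not analysed here. Python 3.11.15 and matplotlib 3.10.9 drew the figures.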

Additional observations from a re-analysis of the deposited data

How the results depend on the processing

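Over the 18 alternatives, which changed moderation, weights, scaling, filter, probe set choice, block, covariate or samples, limma called 0 genes, 0 members and 0 genes of the lists. The replicate block also gave 0 calls, with 1071 genes at an unadjusted p under 0.05, against 867, and Cirbp among them. The labels do not say whether a shared replicate number marks a pair or a batch. Deviations of same-numbered arrays correlated at -0.25, 0.46, -0.09 and 0.07, and 1 of 4 arrays correlated best with its own number. So few values cannot settle whether the numbers mark a pairing. Leaving out 1 sample moved the 867 to between 578 and 1524, the highest without rilpivirine replicate 4. Differences near 0 changed sign. With small nucleolar RNA as a covariate Hspa1b, Hspa8, Dnajb1 and Hspb1 had 0.27, 0.0037, 0.10 and -0.061 log2. Array weights gave 0.085 for Dnajb1 and -0.036 for Hspb1. Without rilpivirine replicates 1 and 2 together these genes had 0.036 and -0.26. A further quantile normalization gave 0.029 for Dnajb1, the mean of all probe sets -0.037 for Hspb1, and centring -0.013 for Hsph1 and -0.0038 for Hsp90aa1. Leaving out 1 sample at a time gave -0.45 to 0.25 for Hspa1b, -0.22 to -0.052 for Hspa8, -0.096 to 0.12 for Hsph1, -0.087 to 0.083 for Hsp90aa1, -0.15 to 0.14 for Dnajb1, and -0.11 to 0.31 for Hspb1. It gave 0 to 1 ratios to Cirbp with groups that did not overlap. Of the 18 settings, the median changed sign in 3 for heat shock members, ER chaperones and temperature-linked genes, in 4 for other cytosolic chaperones and immediate early genes, and in 1 for mitochondrial chaperones. The causes were not tested. Of the 28 pairs, 0 passed with group means taken out or without the 2 farthest arrays. Fewer arrays make a pass harder, so the second of these settings says little. Hspa1a kept a negative and Cirbp a positive sign in every alternative that included them, and Hspa1a was not in the fit above the 50th percentile.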

Other observations

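The 4 genes that stood farther above their own mean than Hspa1b on control replicate 1 were named after their values were seen. Sult2a2, a sulfotransferase, measured 7.03 log2 there, against 2.73 to 4.71 on the other arrays. Saa2, an acute phase serum amyloid, measured 9.51, against 6.21 to 8.64, and the others were Mir505 (8.36, against 4.42 to 7.45) and the predicted gene Gm11564 (4.58, against 2.55 to 3.21). Orm2 (8.99 log2, against 6.30 to 8.23) and Gpnmb (6.76, against 4.38 to 6.55) were ranked 6 and 7 on the same array. Igfbp1, a binding protein of insulin-like growth factors, was ranked 8, at 9.19 log2, against 6.25 to 8.85. These genes too were named after their values were seen.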
